A study of Rattus norvegicus with 93 samples.

Results

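Gprin1, Grin2d, Dusp8 and Zxdc are 4 of the 15975 named genes measured in healing skull defects of rats, and they were chosen by the sign of their difference between defect sizes. In each of them the log2 value as deposited in 8 mm defects minus that in 4 mm defects was below 0 at days 3 and 5 and above 0 at days 14 and 21. The sign rule thus used the size differences of those 4 days, which are given below as a description with no test. The tissue was calvarial bone with the plug of healing tissue, cut out of male rats aged 12 weeks with the trephine that had made the defect. The defect was a circular hole of 4 mm or of 8 mm with the dura mater left in place, the wound was sutured and nothing more was applied, and the submitters call the larger hole CSD and the smaller non-CSD. The strain and the genotype are not stated in the labels, and each sample is the tissue of 1 defect. At days 1, 3, 5, 7, 10, 14 and 21 the 4 mm groups held 3, 8, 11, 5, 4, 5 and 6 arrays and the 8 mm groups held 5, 11, 12, 5, 6, 6 and 6, which makes 93 one-colour arrays. Unoperated bone was not analysed here, so changes over time are given against day 1.

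The genes come from unlike pathways. Gprin1 codes for G protein-regulated inducer of neurite outgrowth, a membrane-associated protein that binds activated alpha subunits of the Gi/o class of G proteins and promotes the growth of neurites. Grin2d codes for GluN2D, a regulatory subunit of the NMDA type of glutamate receptor, a calcium-permeable channel best known at synapses. Dusp8 codes for a dual-specificity phosphatase that removes phosphate from the stress-activated MAP kinases JNK and p38 and so ends their signal. Zxdc codes for a zinc finger protein that works with the co-activator CIITA in the transcription of MHC class II genes, by which antigen-presenting cells display peptides. A healing bone defect holds immune, vascular, nerve, dural and bone cells. In whole tissue, fewer cells of a type and less RNA per cell cannot be told apart.

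The 250 bases before the annotated start of each gene are shown as background, and their link to its values was not tested. They are from RefSeq on the GRCr8 assembly, 5′ to 3′ on the strand of the gene. In them each GC box (GGGCGG, or CCGCCC for the other strand) is in capitals. They lie at chr17:9868759-9869008 on the plus strand for Gprin1, chr1:105481237-105481486 on the minus strand for Grin2d, chr1:206612442-206612691 on the minus strand for Dusp8 and chr4:124439310-124439559 on the plus strand for Zxdc.
Gprin1: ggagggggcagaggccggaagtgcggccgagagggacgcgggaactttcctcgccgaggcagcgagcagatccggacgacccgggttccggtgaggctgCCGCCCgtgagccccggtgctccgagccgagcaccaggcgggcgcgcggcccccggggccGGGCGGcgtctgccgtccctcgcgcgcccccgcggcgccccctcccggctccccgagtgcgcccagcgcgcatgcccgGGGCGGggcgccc
Grin2d: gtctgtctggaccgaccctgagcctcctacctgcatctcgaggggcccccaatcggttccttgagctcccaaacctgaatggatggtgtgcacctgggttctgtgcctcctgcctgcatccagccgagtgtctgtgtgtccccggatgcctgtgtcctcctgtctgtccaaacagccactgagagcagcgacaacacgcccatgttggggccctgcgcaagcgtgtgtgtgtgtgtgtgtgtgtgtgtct
Dusp8: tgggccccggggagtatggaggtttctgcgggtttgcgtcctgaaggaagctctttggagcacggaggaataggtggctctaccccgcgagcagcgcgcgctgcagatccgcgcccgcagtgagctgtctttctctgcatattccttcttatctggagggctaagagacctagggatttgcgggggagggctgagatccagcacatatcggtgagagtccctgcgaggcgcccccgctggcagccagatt
Zxdc: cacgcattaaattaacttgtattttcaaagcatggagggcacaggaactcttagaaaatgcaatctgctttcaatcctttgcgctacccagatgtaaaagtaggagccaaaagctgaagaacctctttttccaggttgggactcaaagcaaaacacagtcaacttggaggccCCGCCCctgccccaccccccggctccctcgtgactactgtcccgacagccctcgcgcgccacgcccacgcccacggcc
The Gprin1 window was 81.2% G or C with 40 CG dinucleotides and 3 GC boxes. Windows of the other genes were 60.4% (Grin2d), 61.2% (Dusp8) and 54% (Zxdc) G or C with 9, 17 and 12 CG dinucleotides. Over 33469 windows of this length the median was 51.2% G or C and 5 CG dinucleotides. A GC box was found once in Zxdc and in neither Grin2d nor Dusp8, while 30.5% of all windows held at least 1. The TATA box (TATAAA), searched like the others on both strands, was in none of the 4 windows and in 12.9% of all. The core of the cAMP response element (CGTCA) was in none of the 4 and in 18.2% of all, and the AP-1 site (TGACTCA) in none of the 4 and in 4.05% of all.

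Each gene had 1 probe on the array. The Grin2d and Dusp8 probes matched a current RefSeq accession, while those of Gprin1 and Zxdc carry these names in the platform's annotation only. The deposited values are ratios in which most probes have a median of 1 over the arrays, so a log2 value of 0 is near the gene's own median and levels cannot be compared between genes. A floor of 0.01 held 13.4% of all values, but all 4 genes stayed above it on all 93 arrays, as did 5413 genes. No marker of any cell type list stood at the floor on all arrays, those of osteoblasts and osteocytes included. The array level, the median log2 value of the probes never at the floor, was below -0.7 on 7 arrays. These were 2 of day 1, 2 of 8 mm day 3 and 3 of day 10, and 1 of them, replicate 18 of 8 mm day 3, had a level of -2.69 and the lowest value of its group for all 4 genes. Size differences are therefore also given with each array centred on its level, or on the median of all its genes. Each p-value sets a difference against the scatter between samples only, which may be technical in part, and the number of arrays limits the precision. For each gene that scatter is 1 estimate shared by all 14 groups. A printed SE can therefore be smaller or larger than the arrays compared would give alone. In Zxdc at day 7 it was 0.64, where the SDs were 0.31 in 4 mm and 0.52 in 8 mm defects.

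The sign rule was met by 1193 genes, 7.47% of those measured, and by 6.03% and 8.66% after the first and the second centring. By the smallest of the 4 differences, each signed so that the rule's direction is positive, Dusp8 stood at rank 39, Zxdc at 51, Gprin1 at 91 and Grin2d at 574. Their smallest differences were 0.87, 0.75, 0.57 and 0.14 on the log2 scale. At the edge of the rule, by the same measure, stood Lrrn1 just inside (0.00016) and Fhl3 just outside (-0.00022). In Grin2d the sign of day 3 depended on the scaling. It was -0.14 as deposited and -0.02 after centring on all genes, but 0.13 after centring on the array level, 0.09 with quantile normalization and 0.19 without the 7 arrays of low level.

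**Figure D1:**
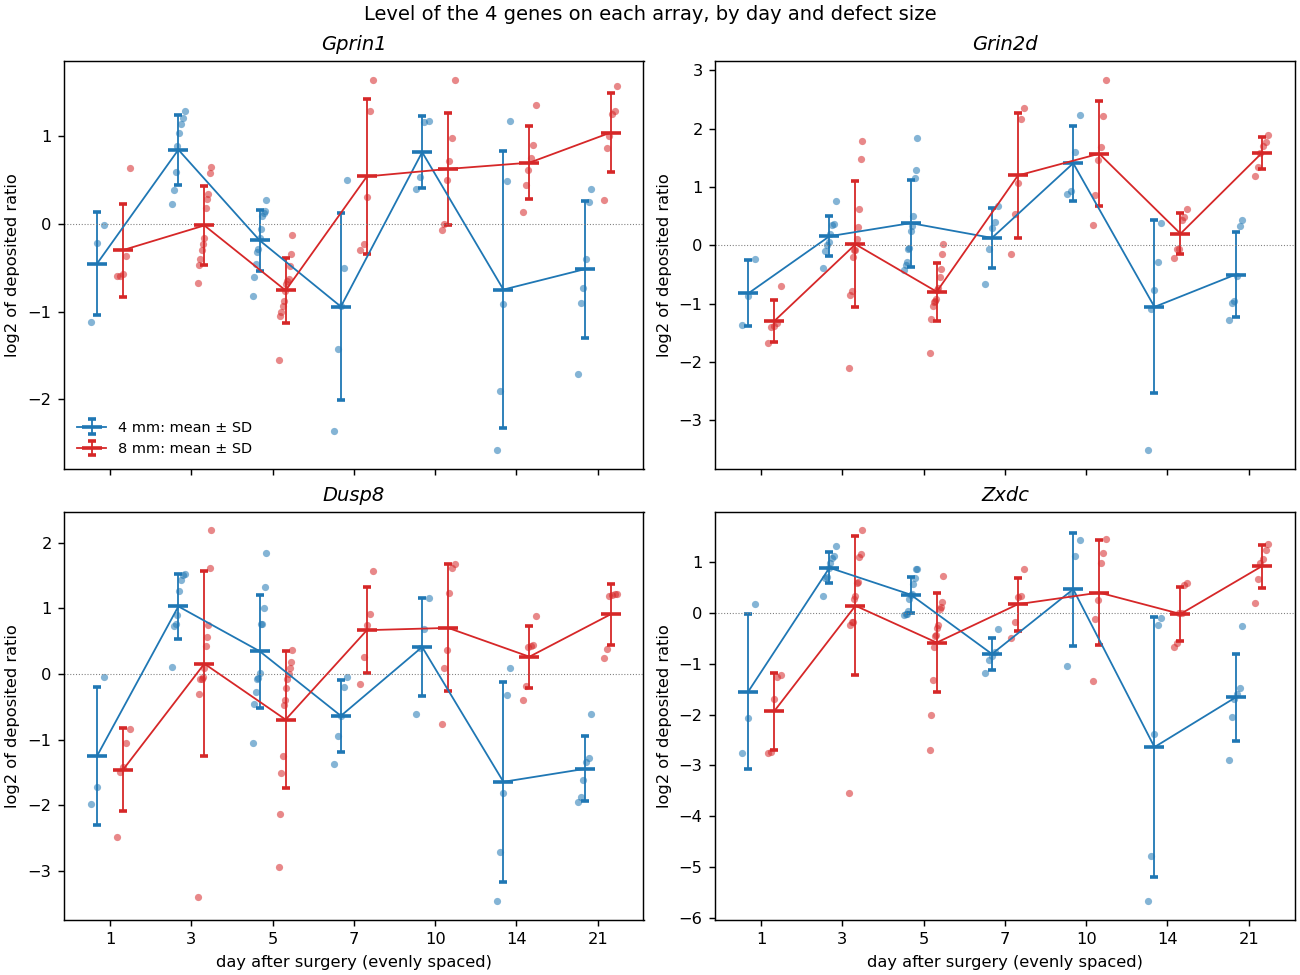
Log2 of the deposited ratio of Gprin1, Grin2d, Dusp8 and Zxdc on each array (dots) by day after surgery, in 4 mm (blue) and 8 mm (red) defects, with group means and SD (bars). The red mean lies below the blue at days 3 and 5 (in Grin2d at day 3 by 0.14, a sign that turns with the scaling) and above it at days 7, 14 and 21, and at day 21 the groups do not overlap in Grin2d, Dusp8 and Zxdc.

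Grin2d, the receptor subunit, had its widest split at day 21. At day 3 its log2 value in 4 mm defects had a lowest of -0.39, a median of 0.13 and a highest of 0.75, against -2.11, -0.08 and 1.79 in 8 mm defects. The 8 mm arrays thus lay on both sides of the 4 mm arrays, 3 below all and 2 above all of them, and the difference of -0.14 ± 0.36 (SE, n = 8 and 11) was within its error. At day 5 the lowest, median and highest values were -0.43, 0.24 and 1.83 in 4 mm and -1.84, -0.84 and 0.02 in 8 mm defects. All 12 of the 8 mm arrays were below the 4 mm mean and 9 were below every 4 mm array (difference -1.18 ± 0.32). At day 14 the 4 mm arrays read -3.52, -1.09, -0.77, -0.28 and 0.39, and the 8 mm arrays had a lowest of -0.22, a median of 0.19 and a highest of 0.63. The 8 mm arrays were tightly grouped and all 6 lay above the 4 mm mean, while 1 low 4 mm array, replicate 18, widened the gap. The difference was 1.26 ± 0.47 (n = 5 and 6) with it and 0.64 without it. At day 21 the 4 mm arrays spanned -1.28 to 0.43 with a median of -0.74, and the 8 mm arrays 1.19 to 1.90 with a median of 1.65. Every 8 mm array was above every 4 mm array, and the difference of 2.08 ± 0.44 (n = 6 and 6) is 4.23-fold.

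On the days the rule did not use, Grin2d was low early and high later in both sizes. At day 1 it read -1.37, -0.86 and -0.24 in 4 mm and -1.67, -1.41, -1.39, -1.34 and -0.69 in 8 mm defects. At day 7 the 4 mm arrays read -0.66, -0.07, 0.30, 0.40 and 0.67 and the 8 mm arrays -0.15, 0.54, 1.07, 2.17 and 2.36. Of the 8 mm arrays 3 were above all those of 4 mm. At day 10 the values were 0.88, 0.92, 1.60 and 2.23 in 4 mm defects and had a lowest of 0.35, a median of 1.58 and a highest of 2.84 in 8 mm defects, which overlapped fully.

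Gprin1, the G protein partner, had the smallest differences of the 4 at days 5 and 21. At day 3 its lowest, median and highest log2 values were 0.23, 0.97 and 1.29 in 4 mm and -0.67, -0.16 and 0.65 in 8 mm defects. All 11 of the 8 mm arrays lay below the 4 mm mean and 7 below every 4 mm array (difference -0.86 ± 0.31). At day 5 the values were -0.82, -0.16 and 0.28 in 4 mm and -1.55, -0.73 and -0.13 in 8 mm defects. Of 12 arrays in 8 mm defects 11 were below the 4 mm mean (difference -0.57 ± 0.28). At day 14 the 4 mm arrays read -2.58, -1.91, -0.91, 0.49 and 1.17, a span that held nearly the whole 8 mm range of 0.13 to 1.35 (median 0.68). The difference there was 1.45 ± 0.40, with 1 of the 6 arrays of 8 mm above all those of 4 mm. At day 21 the 4 mm arrays spanned -1.72 to 0.40 (median -0.56) and the 8 mm arrays 0.27 to 1.58 (median 1.13). Of the 6 arrays of 8 mm, 5 were above every 4 mm array, and the difference of 1.56 ± 0.38 is 2.95-fold.

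At day 1 Gprin1 read -1.12, -0.22 and -0.01 in 4 mm and -0.60, -0.59, -0.57, -0.36 and 0.64 in 8 mm defects. At day 7 the 4 mm arrays read -2.36, -1.42, -0.94, -0.50 and 0.51 and the 8 mm arrays -0.30, -0.23, 0.31, 1.29 and 1.64. All 5 of the 8 mm arrays exceeded the 4 mm mean and 2 exceeded every 4 mm array. At day 10 the 4 mm arrays read 0.40, 0.54, 1.17 and 1.18, inside the 8 mm span of -0.07 to 1.65 (median 0.61).

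Dusp8, the JNK and p38 phosphatase, stood highest of the 4 in the rank given above. At day 3 its lowest, median and highest log2 values were 0.10, 1.08 and 1.53 in 4 mm and -3.39, 0.09 and 2.18 in 8 mm defects. The 8 mm arrays were far more spread, with 6 below and 2 above all those of 4 mm. The difference of -0.87 ± 0.43 became -0.46 without the arrays of low level. At day 5 the values were -1.04, 0.02 and 1.85 in 4 mm and -2.94, -0.30 and 0.36 in 8 mm defects. Of 12 arrays in 8 mm defects 11 were below the 4 mm mean, and 4 were below every 4 mm array (difference -1.04 ± 0.38). At day 14 the 4 mm arrays read -3.46, -2.70, -1.82, -0.31 and 0.09, and the 8 mm arrays spanned -0.40 to 0.88 (median 0.42). The difference of 1.90 ± 0.56 came with 4 of 6 arrays of 8 mm above all those of 4 mm. At day 21 the 4 mm arrays spanned -1.95 to -0.60 (median -1.48) and the 8 mm arrays 0.25 to 1.22 (median 1.19). The groups were fully apart, and the difference of 2.35 ± 0.53 is 5.10-fold.

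At day 1 Dusp8 was low in both sizes, with -1.97, -1.72 and -0.04 in 4 mm and -2.49, -1.49, -1.41, -1.05 and -0.84 in 8 mm defects. At day 7 the 4 mm arrays read -1.37, -0.94, -0.63, -0.19 and -0.05 and the 8 mm arrays -0.15, 0.25, 0.75, 0.92 and 1.57. Only 1 array of 8 mm, replicate 12, fell within the 4 mm range. At day 10 the 4 mm arrays read -0.60, 0.40, 0.69 and 1.16, and the 8 mm arrays spanned -0.76 to 1.68 (median 0.80).

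Zxdc, the MHC class II transcription partner, had the largest differences of the 4 at days 14 and 21 and the widest spread at day 14. At day 3 its lowest, median and highest log2 values were 0.33, 0.93 and 1.31 in 4 mm and -3.54, 0.33 and 1.61 in 8 mm defects. Of 11 arrays in 8 mm defects 8 were below the 4 mm mean. The difference of -0.75 ± 0.47 became -0.30 without the arrays of low level. At day 5 the values were -0.05, 0.35 and 0.87 in 4 mm and -2.70, -0.38 and 0.72 in 8 mm defects, with 8 of 12 arrays of 8 mm below every 4 mm array (difference -0.94 ± 0.42). At day 14 the 4 mm arrays read -5.66, -4.79, -2.39, -0.25 and -0.11, and the 8 mm arrays spanned -0.67 to 0.58. The 4 mm group thus fell into arrays near the 8 mm values and arrays far below them, the lowest at a ratio of 0.0197, close to the floor. The difference of 2.61 ± 0.61 became 1.07 with quantile normalization. Its SE uses the spread shared by all 14 groups, while the SDs of these arrays were 2.55 in 4 mm and 0.53 in 8 mm defects. In Gprin1, Grin2d and Dusp8 the 4 mm SDs of day 14 were 1.58, 1.48 and 1.52. For all 4 genes the SE of day 14 is thus smaller than the scatter of that day's arrays alone would give. At day 21 the 4 mm arrays spanned -2.89 to -0.26 (median -1.65) and the 8 mm arrays 0.18 to 1.35 (median 1.02). The groups did not overlap, and the difference of 2.57 ± 0.58 is 5.94-fold.

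At day 1 Zxdc read -2.75, -2.07 and 0.17 in 4 mm and -2.75, -2.73, -1.70, -1.26 and -1.23 in 8 mm defects. At day 7 the 4 mm arrays read -1.18, -0.93, -0.86, -0.77 and -0.33 and the 8 mm arrays -0.49, -0.18, 0.31, 0.33 and 0.86. As for Dusp8, 4 of the 5 arrays of 8 mm were above all those of 4 mm and replicate 12 was the exception. At day 10 the 4 mm arrays read -1.05, 0.35, 1.11 and 1.43 and the 8 mm arrays spanned -1.34 to 1.45 (median 0.61), so the sizes overlapped fully.

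Complete separation of the sizes was thus seen for 3 of the 4 genes at day 21, where 0.438% of all genes had every 8 mm array above every 4 mm array, and for none of the 4 at day 7 (0.407% of all genes) or day 14 (0.67%). Nothing is read from that count, since the rule used day 21. On each 4 mm array of day 14 the genes tended to move together: replicate 15 was the highest of its group for all 4 genes, and replicate 18 the lowest for 3 of them. Quantile normalization widened the day 5 differences to -1.17 for Gprin1, -2.18 for Grin2d, -1.64 for Dusp8 and -1.57 for Zxdc. The same scaling narrowed those of day 14 to 1.00, 0.79, 1.13 and 1.07 and kept their direction.

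**Figure D2:**
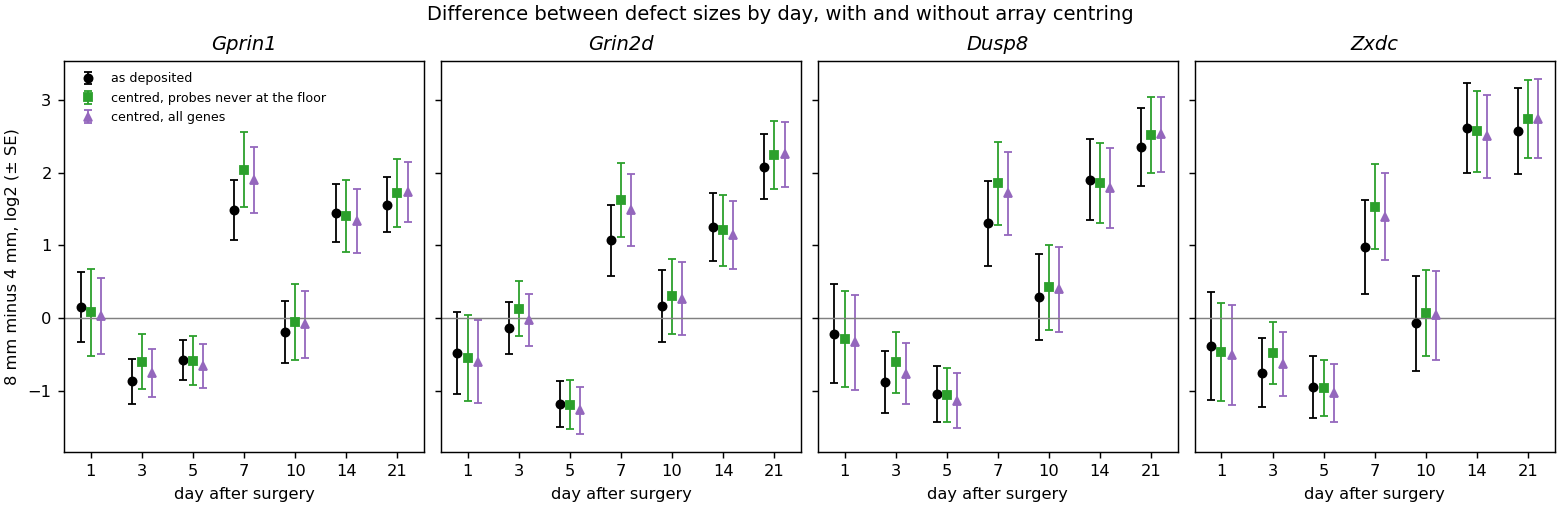
Log2 value in 8 mm minus 4 mm defects (± SE) by day for each gene, as deposited (black), with each array centred on the median of the probes never at the floor (green) and on the median of all genes (purple). The points change by at most 0.55 with centring, at day 7, and the sign changes with it in Grin2d at day 3 and Zxdc at day 10.

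The size difference could be tested on the days the rule did not use, days 1, 7 and 10, with limma over all genes. At day 7 the 8 mm value was higher in all 4 genes, by 1.49 ± 0.42 in Gprin1, 1.07 ± 0.49 in Grin2d, 1.30 ± 0.58 in Dusp8 and 0.98 ± 0.64 in Zxdc (n = 5 and 5). None of the 4 passed, with adjusted p of 0.08266, 0.2916, 0.2866 and 0.4592 from limma, where 0.369% of all genes passed. A difference above 0 was found in 37.1% of all genes at day 7 as deposited, and in 57.3% and 50.8% after the first and second centring. Gprin1 passed once the arrays were centred on their level (2.04, adjusted p = 0.0354 from limma) or on all genes (1.90, adjusted p = 0.0327). It also passed with quantile normalization (1.84, adjusted p = 0.04398), with array weights (1.09, adjusted p = 0.02208), without the 7 arrays of low level (adjusted p = 0.0164) or without the 8 arrays with a score of neuron markers above 2 (2.02, adjusted p = 0.0061), of which replicates 10 and 12 of 8 mm day 7 are 2. Leaving out replicate 13 of 4 mm (1.85, limma adjusted p = 0.03217), replicate 10 of 8 mm (1.70, 0.0391) or replicate 12 of 8 mm (1.68, 0.03413) had the same effect. Of the single arrays left out, no other had this effect. Gprin1 also did not pass with the day fitted alone, with array level as a covariate, with a replicate block or with low values raised. More of all genes passed, too, with array weights and without the arrays of low level or of high neuron score (counts below). The Gprin1 call at this day thus depended on the setting. The other 3 genes did not pass under either centring.

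Days 1 and 10 gave no difference beyond error for any of the 4. At day 1 the 8 minus 4 mm values were 0.15 ± 0.48 for Gprin1, -0.47 ± 0.56 for Grin2d, -0.21 ± 0.67 for Dusp8 and -0.38 ± 0.74 for Zxdc, each with a limma adjusted p of 1, and 0% of all genes passed. At day 10 they were -0.19 ± 0.43, 0.16 ± 0.50, 0.29 ± 0.60 and -0.07 ± 0.65 with limma adjusted p of 0.9495 to 0.991, and 0.263% of all genes passed. With SE of 0.43 to 0.74, missing the threshold does not show that the sizes had equal levels. The sign at day 1 or day 10 turned under another setting in each of the 4 genes and is not read.

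Taken over both sizes, all 4 genes changed over the 7 days. The moderated F test of equal day means gave limma adjusted p of 0.0002216 for Gprin1, 2.277e-08 for Grin2d, 0.0002711 for Dusp8 and 2.518e-05 for Zxdc, and 58.4% of all genes passed it. These day means pool the arrays of both sizes, whose mix differs by day, so that they carry part of the size difference, and values with both sizes weighted equally are given where they change a call. All days are compared with the same 8 arrays of day 1. Day 10 was the day on which 4 of 4 genes were higher than at day 1 (10.9% of all genes rose). Each of the 10 arrays of day 10 lay above the day 1 mean in each gene. Grin2d rose the most, from -1.12 ± 0.48 (SD, n = 8) to 1.51 ± 0.77 (n = 10), a change of 2.63 ± 0.36 (SE, limma adjusted p = 2.278e-08) or 6.18-fold. Zxdc rose by 2.21 ± 0.48 (adjusted p = 0.0003479), Dusp8 by 1.96 ± 0.44 (adjusted p = 0.0005094) and Gprin1 by 1.06 ± 0.31 (adjusted p = 0.01058). The Gprin1 call at day 10 was lost with arrays centred on their level (0.70, limma adjusted p = 0.1754) and with quantile normalization (0.83, adjusted p = 0.07568).

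At day 3, 3 of the 4 genes had risen, against 5.97% of all genes. Zxdc rose by 2.24 ± 0.43 (limma adjusted p = 7.717e-05), Dusp8 by 1.90 ± 0.39 (adjusted p = 0.0002632) and Grin2d by 1.20 ± 0.32 (adjusted p = 0.00977), each in 18 of 19 arrays above the day 1 mean. Gprin1 differed by 0.70 ± 0.28 and did not pass (adjusted p = 0.1377), though it did with array weights (0.75, adjusted p = 0.008735). The Grin2d call was lost when arrays were centred on their level (0.91, adjusted p = 0.08253).

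At day 5 the same 3 genes passed (17.7% of all genes rose), by 1.65 ± 0.41 in Zxdc (limma adjusted p = 0.001668), 1.18 ± 0.38 in Dusp8 (adjusted p = 0.01706) and 0.89 ± 0.32 in Grin2d (adjusted p = 0.0341). With either centring Zxdc alone passed, with 1.06 and 1.26, while Dusp8 gave 0.59 and 0.79 and Grin2d 0.30 and 0.50. Leaving out replicate 12 of 8 mm day 1 ended the calls of Dusp8 (limma adjusted p = 0.05126) and Grin2d (adjusted p = 0.0549), and leaving out replicate 18 of 4 mm day 1 (0.0622) or replicate 13 (0.05876), 14 (0.08017) or 16 (0.06654) of 8 mm day 1 ended that of Grin2d. Quantile normalization (0.63, adjusted p = 0.211) and both sizes weighted equally (0.86, adjusted p = 0.05111) ended the Grin2d call too. The Dusp8 call also ended with less variable genes left out (adjusted p = 0.09798). With array level as a covariate both ended (adjusted p = 0.1513 for Grin2d and 0.1307 for Dusp8). Gprin1 was at -0.13 ± 0.27 and did not pass, but with quantile normalization it was lower than at day 1 (-0.85, limma adjusted p = 0.02966).

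At day 7 Grin2d was 1.78 ± 0.36 higher than at day 1 (limma adjusted p = 0.0001009), Zxdc 1.47 ± 0.48 (adjusted p = 0.01889) and Dusp8 1.39 ± 0.44 (adjusted p = 0.01428), each in 10 of 10 arrays, and 16.6% of all genes rose. Grin2d passed with either centring (1.15 and 1.47). Zxdc (0.84 and 1.15) and Dusp8 (0.76 and 1.07) did not, nor with less variable genes left out (limma adjusted p = 0.05698 and 0.05135) or with array level as a covariate (0.159 and 0.08372). At day 14, when 12.9% of all genes rose, 0 of the 4 genes passed, with changes of 0.40 ± 0.31 in Gprin1, 0.75 ± 0.36 in Grin2d, 0.77 ± 0.43 in Dusp8 and 0.58 ± 0.47 in Zxdc. Without replicate 18 of 4 mm day 14 Grin2d passed (1.07, adjusted p = 0.01602). With quantile normalization Grin2d (1.19, limma adjusted p = 0.0206), Dusp8 (1.49, 0.02339) and Zxdc (1.93, 0.00149) passed at day 14, and with values under 0.25 raised to 0.25 Grin2d (0.89, 0.03827) and Zxdc (0.91, 0.03921) did. At day 21 Grin2d (1.66 ± 0.35, limma adjusted p = 0.0001463), Zxdc (1.42 ± 0.46, adjusted p = 0.01559) and Dusp8 (1.11 ± 0.42, adjusted p = 0.04004) passed, in 11, 10 and 9 of 12 arrays above the day 1 mean, while 13.6% of all genes rose. The Dusp8 call was lost with arrays centred on their level (0.83, adjusted p = 0.1098), with less variable genes left out (0.08188), with array level as a covariate (0.06103) and with both sizes weighted equally (1.08, 0.05164). It was also lost without replicate 13 (0.07665) or 18 (0.06564) of 4 mm day 1 or replicate 12 (0.09928), 14 (0.05574) or 16 (0.05985) of 8 mm day 1, and Gprin1 passed at day 21 without the arrays of high neuron score (0.79, adjusted p = 0.04746).

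**Figure D3:**
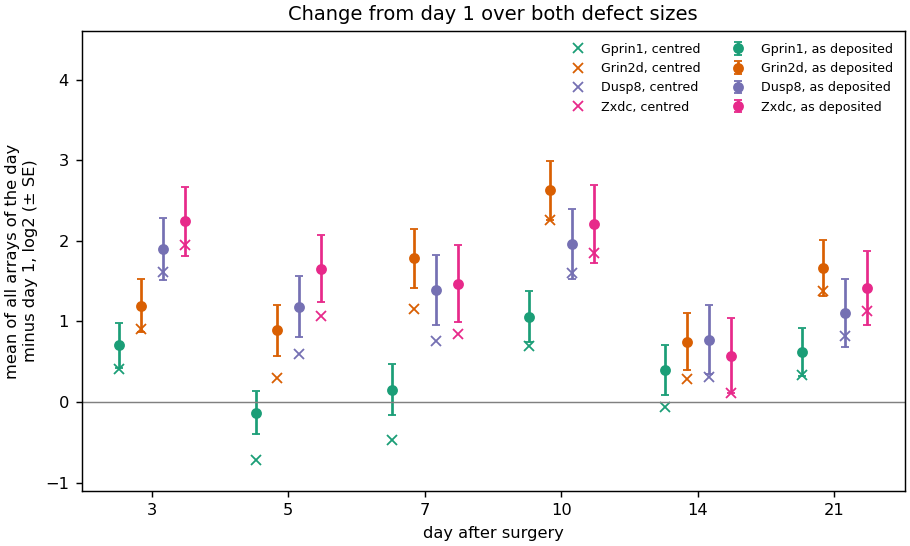
Mean log2 value of all arrays of a day minus that of day 1 (± SE) for Gprin1, Grin2d, Dusp8 and Zxdc as deposited (dots), and after centring each array on the median of the probes never at the floor (crosses). Grin2d, Dusp8 and Zxdc lie above 0 on each later day and all 4 genes peak at day 3 or 10, and the crosses lie below the dots.

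The median of all genes also moved against day 1, by 0.18, 0.33 and 0.23 at days 3, 5 and 7 and by -0.09, -0.06 and -0.19 at days 10, 14 and 21. After centring on the array level it was -0.11, -0.26, -0.40, -0.45, -0.52 and -0.48. Of the size differences it was -0.16, -0.40, -0.11, 0.14 and -0.20 at days 3, 7, 10, 14 and 21. After centring on the array level it was 0.11, 0.16, 0.03, 0.09 and -0.04 on these days. At day 7 the 4 genes thus ran against the median as deposited but not after centring.

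In the order of the 14 group means, 8 mm day 21 was the highest for Gprin1 (1.04 ± 0.45, SD), Grin2d (1.58 ± 0.27) and Zxdc (0.91 ± 0.43), and came after 4 mm day 3 (1.03 ± 0.50) for Dusp8 (0.91 ± 0.46). In Gprin1 and Zxdc the next was 4 mm day 3 (0.85 ± 0.40 and 0.88 ± 0.31), and in Grin2d 8 mm day 10 (1.57 ± 0.90). The lowest were 4 mm day 14 for Dusp8 (-1.64 ± 1.52) and Zxdc (-2.64 ± 2.55), 4 mm day 7 for Gprin1 (-0.94 ± 1.06) and 8 mm day 1 for Grin2d (-1.30 ± 0.36). No neighbours in any of the 4 orders differed by more than the larger of their SDs. In Gprin1, Dusp8 and Zxdc the 2 highest means were thus 4 mm day 3 and 8 mm day 21. Each is the size that the rule required to be the higher on its day, so nothing is read from this order.

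The genes also varied together between arrays of the same group. The rule used group means and not the deviations from them, but both come from the same arrays. An array far from its group can shape a chosen difference and these correlations alike. The correlations are therefore not independent of the choice of the genes. After the group mean was taken off, the correlation over 93 arrays was 0.81 for Dusp8 and Zxdc, 0.71 for Grin2d and Zxdc, 0.71 for Gprin1 and Zxdc, 0.68 for Gprin1 and Grin2d, 0.64 for Grin2d and Dusp8 and 0.60 for Gprin1 and Dusp8. These are descriptions, since the values of an array share its scaling and the make-up of its tissue. The median correlation of a member with all other genes lay between -0.01 (Gprin1) and 0.10 (Zxdc), and its 95th percentile between 0.24 and 0.43. Array level correlated at -0.03 with Gprin1, 0.21 with Grin2d, 0.29 with Dusp8 and 0.41 with Zxdc. With arrays centred on that level the 6 pairs ranged from 0.63 to 0.79, and without the arrays of low level from 0.55 to 0.74. After the centring, array level correlated at -0.61 with Gprin1, -0.39 with Grin2d, -0.23 with Dusp8 and -0.07 with Zxdc. The centred values share the level taken off, so the centred pairs do not show the correlation free of array level.

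**Figure D4:**
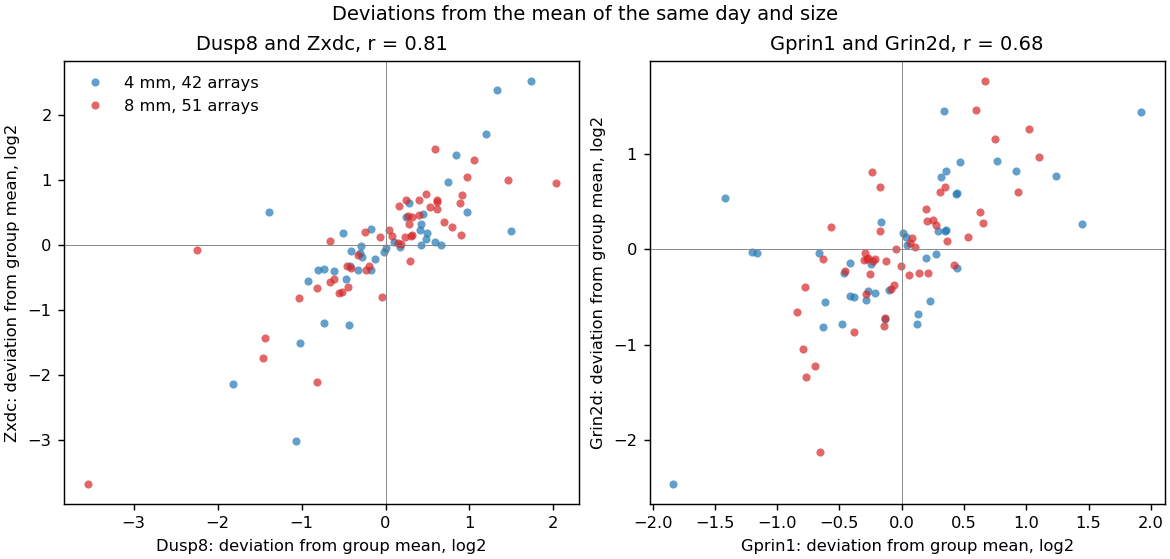
Deviation of each array from the mean of its own day and size, on the log2 scale, for Dusp8 against Zxdc (left) and Gprin1 against Grin2d (right), with 42 arrays of 4 mm (blue) and 51 of 8 mm (red) defects. Points of both sizes run along the diagonal, with r of 0.81 and 0.68.

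Among 5412 other genes above the floor on all arrays, those with the group profile most like each of the 4 were named by Pearson's r over the 14 group means. Zxdc was the most like Dusp8 (r = 0.974), followed by Msl3l2 (0.970) and Plekho2 (0.946), and for Zxdc they were Dusp8, Msl3l2 (0.956) and Mcrip1 (0.943). For Gprin1 they were Runx3 (0.930), a runt-domain transcription factor, Hes7 (0.901) and Cadm4 (0.900), and for Grin2d Calcoco2 (0.915), Marcks (0.903) and Mta1 (0.895). In Msl3l2 the 8 minus 4 mm difference ran -0.65, -0.71, 1.15, 1.77 and 1.57 over days 3, 5, 7, 14 and 21. In Plekho2 it ran -0.65, -0.62, 1.14, 1.51 and 1.88. Between the 4 genes the other r were 0.85 for Dusp8 and Grin2d, 0.84 for Gprin1 and Dusp8, 0.82 for Grin2d and Zxdc, 0.78 for Gprin1 and Zxdc and 0.77 for Gprin1 and Grin2d. These profiles share the arrays, and the shared reversal was part of the choice of the 4.

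Relatives of the 4 genes were taken list by list. Of the glutamate receptor subunits and postsynaptic partners of Grin2d, 18 of 20 were measured. Between sizes, 0 of 18 passed on days 1 to 14 (1.63% of all genes passed at day 14) and 2 of 18 passed at day 21, both lower in 8 mm defects, where 2.4% of all genes passed and 1.86% were lower. They were the AMPA receptor subunits Gria1, at 1.31 ± 1.63 (SD) in 4 mm and -3.35 ± 3.65 in 8 mm defects (-4.66 ± 1.04, SE, limma adjusted p = 0.0077), and Gria3, at 1.98 ± 2.01 and -1.09 ± 0.53 (-3.07 ± 0.76, adjusted p = 0.0148). Gria1 stood at the floor on 3 of 6 arrays of 8 mm. Grin2d ran the opposite way on the same arrays. The neuron markers moved with Gria1 and Gria3: the score, the mean log2 value of 9 measured markers of 10, had a median of 1.34 (range -2.10 to 3.97) in 4 mm and of -1.04 (range -1.99 to -0.41) in 8 mm defects at day 21. Without the 8 arrays of high neuron score neither call held, with adjusted p of 0.203 for Gria1 and 0.448 for Gria3. Against day 1, Gria3 was higher on each later day, by 2.28 ± 0.55 (limma adjusted p = 0.003017) at day 3 up to 3.98 ± 0.54 at day 5. With values under 0.25 raised to 0.25 the day 3 call of Gria3 was lost (0.73, adjusted p = 0.4336). Grik5, a kainate receptor subunit, passed at days 5 and 21 and Gria4 at day 7, both higher, and with arrays centred on their level Grik5 at day 5 and Gria4 did not.

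Of the 9 other dual-specificity MAP kinase phosphatases listed 8 were measured, and 0 of 8 passed between sizes on any day. Of all genes 0% to 2.4% passed on a day. Their median size difference was -0.05 at day 14 and -0.25 at day 21, against 0.14 and -0.20 for all genes. Against day 1 the counts lower at days 3, 5, 7, 10, 14 and 21 were 1, 1, 2, 3, 2 and 2 of 8, where 0.576%, 1.91%, 5.3%, 7.25%, 8.92% and 13.6% of all genes were lower, and 1 of 8 was higher, at day 21. Dusp8 itself was higher wherever it passed. Dusp7, a cytoplasmic ERK phosphatase, fell by 4.11 ± 1.17 at day 10 (limma adjusted p = 0.007899) with 7 of 10 arrays at the floor. Dusp9, of the same class, fell by 3.95 ± 0.90 at day 14 (adjusted p = 0.0005539) with 4 of 11 arrays at the floor. Dusp4, a nuclear phosphatase, rose by 3.83 ± 1.38 at day 21 (adjusted p = 0.03025), in 12 of 12 arrays, and did not pass with both sizes weighted equally (adjusted p = 0.05241). Dusp5, a nuclear phosphatase of ERK, was never at the floor and fell by 1.19 ± 0.33 at day 3, 1.45 ± 0.33 at day 5 and 1.51 ± 0.38 at day 10 (adjusted p = 0.002114), in every array of these days.

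Of the 17 MAP kinases, upstream kinases, scaffolds and targets listed, 15 were measured and 2 passed between sizes, 1 at day 7 (0.369% of all genes passed) and 1 at day 14 (1.63%), both from values at the floor. Mapk8ip2, a scaffold of the JNK pathway, was higher in 8 mm defects at day 7 (5.07 ± 1.23, limma adjusted p = 0.0322) with 3 of 5 arrays of 4 mm at the floor. Mapk12, the p38 gamma kinase, was higher at day 14 (5.71 ± 0.95, adjusted p = 0.0002) with 4 of 5 arrays of 4 mm at the floor. With values under 0.25 raised to 0.25 neither passed, with adjusted p of 0.1237 for Mapk8ip2 and 0.08363 for Mapk12. Mapk8ip2 passed in 6 of 12 other settings and Mapk12 in 10 of 11. Against day 1 the largest changes also involved the floor. Mapk9, which is JNK2, was higher by 6.98 ± 1.65 at day 7 (limma adjusted p = 0.0008418) with 6 of 8 arrays of day 1 at the floor. Mapk8, which is JNK1, fell by 4.44 ± 0.88 at day 14 (adjusted p = 6.449e-05) with 7 of 11 arrays at the floor, but the mean of its probes gave 0.02 (adjusted p = 0.9808). Map2k7, which activates JNK, fell by 4.72 ± 0.85 at day 10 (adjusted p = 1.522e-05) with 4 of 10 arrays at the floor. Map2k6, which activates p38, was higher by 2.96 ± 0.43 at day 7. At day 3 it was higher by 1.19 ± 0.38 (limma adjusted p = 0.04176), a call that ended in 6 of 11 other settings, with an adjusted p of up to 0.5938. Of the 15 genes, 1, 4, 3, 1, 3 and 2 were higher and 0, 0, 1, 3, 4 and 5 lower at the 6 later days in order. Of all genes 5.97%, 17.7%, 16.6%, 10.9%, 12.9% and 13.6% were higher and 0.576%, 1.91%, 5.3%, 7.25%, 8.92% and 13.6% lower on these days.

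Of the Gprin family, Gi/o alpha subunit and neurite growth genes 13 of 14 were measured, and Marcks alone passed between sizes, 1 of 13 at day 14 and at day 21, where 1.63% and 2.4% of all genes passed. Marcks, a protein kinase C substrate that binds actin, was higher in 8 mm defects at day 14 (1.84 ± 0.49, limma adjusted p = 0.0327) and day 21 (1.65 ± 0.47, adjusted p = 0.0383). Its level went from -0.78 ± 0.57 (SD) in 4 mm to 0.87 ± 0.28 in 8 mm defects at day 21, with 6 of 6 arrays above the 4 mm mean. Probes of Marcks disagreed, since the mean of all of them gave 0.68 and 0.08 on these days and passed on neither, and with quantile normalization neither call held (1.15 and 1.26). The Marcks call held in 4 of 10 other settings at day 14 and in 7 of 10 at day 21. Gprin2 and Gprin3, the relatives of Gprin1, passed in no comparison between sizes or with day 1. Against day 1, 4, 5, 8, 5, 4 and 4 of 13 were higher at the 6 later days, where 5.97%, 17.7%, 16.6%, 10.9%, 12.9% and 13.6% of all genes rose. Their median change was 1.46 at day 7, against 0.23 for all genes. Ncam1, a neural cell adhesion molecule, rose by 3.76 ± 0.27 at day 7 and Stmn2, a tubulin-binding protein of growing neurites, by 5.05 ± 0.60 at day 21 with 2 of 8 arrays of day 1 at the floor. Gnai1, a Gi alpha subunit of the kind that Gprin1 binds, was higher by 5.09 ± 1.72 at day 7 (limma adjusted p = 0.02373) with 5 of 8 arrays of day 1 at the floor.

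Of the Zxd family and MHC class II transcription genes 14 of 17 were measured. Zxda, Zxdb and RT1-DMb were missing, so no relative of Zxdc in the Zxd family was measured. Rfxap, a subunit of the RFX complex that binds MHC class II promoters, was higher in 8 mm defects at day 14 (2.23 ± 0.62, limma adjusted p = 0.041) and lower at day 21 (-2.10 ± 0.59, adjusted p = 0.037), 1 of 14 on each day, where 1.63% and 2.4% of all genes passed. On each of these days 1 array of the lower group stood at the floor, and without the arrays of high neuron score neither passed (adjusted p = 0.689 and 0.05142), nor with quantile normalization (1.74 and -1.68). The Rfxap call held in 5 of 10 other settings at day 14 and in 7 of 10 at day 21. The others, among them Ciita, passed between sizes on no day. Against day 1, RT1-Ba, a class II alpha chain, was lower by 6.30 ± 1.68 at day 7 (limma adjusted p = 0.003453) with 7 of 10 arrays at the floor, and Rfx5, the DNA-binding RFX subunit, by 3.85 ± 1.41 at day 14 (adjusted p = 0.03929) with 7 of 11 at the floor. The Rfx5 call was lost in 3 of 12 other settings, with an adjusted p of up to 0.09406. Nfyc, a subunit of the NF-Y complex, rose by 2.69 ± 0.57 at day 7 (adjusted p = 0.0002021) in 10 of 10 arrays and never stood at the floor there. Chains measured above the floor divided: RT1-Da, another class II alpha chain, rose by 2.35 ± 0.34 at day 10 and 1.92 ± 0.33 at day 21, and Cd74, the invariant chain, by 1.13 ± 0.27 at day 5 and 1.08 ± 0.30 at day 21. RT1-DMa, which helps load peptides, fell by 0.93 ± 0.33 at day 10 and 1.46 ± 0.32 at day 21 (limma adjusted p = 0.03826 and 0.0002092).

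Markers of other cells in the plug were set beside the reversal. Within groups, the score of neuron markers correlated at -0.08 with Gprin1, 0.01 with Grin2d, 0.17 with Dusp8 and 0.12 with Zxdc, and that of 5 measured erythroid markers at 0.28, 0.45, 0.28 and 0.33. Without the 8 arrays of high neuron score the day 21 differences of the 4 genes were 1.83, 1.95, 2.72 and 3.04 in the order above, and those of day 14 lay between 1.20 (Grin2d) and 1.85 (Zxdc). The erythroid score ranged from -0.39 to 1.87 in 4 mm and from 1.48 to 2.04 in 8 mm defects at day 21, and had medians of -2.32 and -1.01 at day 5, where the 4 genes were lower in 8 mm defects. Of the 5 erythroid markers 0 passed between sizes on any day, where 0% to 2.4% of all genes passed, and none stood at the floor on all arrays. The part of red cells in the size differences was not tested. The meninges score (6 markers) correlated at 0.10 with Gprin1, 0.22 with Grin2d, 0.38 with Dusp8 and 0.35 with Zxdc within groups. It ranged from -2.11 to 1.48 (median -0.52) in 4 mm and from 0.16 to 3.07 (median 2.01) in 8 mm defects at day 14, from -0.20 to 2.03 (median 1.15) and from 0.48 to 3.14 (median 1.88) at day 21, and from -2.10 to 3.12 (median -0.64) and from -0.56 to 2.07 (median 0.90) at day 7. Its medians in 4 mm and 8 mm defects were -1.62 and -1.67 at day 3 and -1.21 and -1.31 at day 5. Of its 6 markers 0 passed between sizes at days 3, 5, 7, 14 and 21, where 0% to 2.4% of all genes passed. At day 10 Foxc1, 1 of the 6, was higher in 8 mm defects, where 0.263% of all genes passed. The score of 7 fibroblast and wound matrix markers correlated at 0.08, 0.25, 0.29 and 0.42 with the 4 genes in the same order, and that of 6 markers of dividing cells at 0.002, 0.12, 0.18 and 0.37. With the genes, but not the scores, centred on the array level, the fibroblast and wound matrix score gave -0.45, -0.28, -0.17 and 0.01. The score of dividing cells gave -0.43, -0.32, -0.21 and 0.02. In Gprin1, Grin2d and Dusp8 the sign of both thus turned with the scaling. The erythroid score then gave 0.07, 0.27, 0.14 and 0.23 and the meninges score -0.05, 0.08, 0.27 and 0.26. The part of these cells in the size differences was not tested. Of the 8 osteoblast and osteocyte markers, 0 passed between sizes at days 7, 14 or 21. Of all genes 0.369%, 1.63% and 2.4% passed on these days. The median scores were -0.48 in 4 mm and 0.80 in 8 mm defects at day 21. They were -1.28 and -0.46 at day 3 and -0.67 and -0.49 at day 5. Within groups this score correlated at -0.21, -0.14, -0.25 and -0.15 with the 4 genes in the same order. That of 5 measured osteoclast markers correlated at -0.32, -0.14, -0.07 and -0.10. The part of bone cells was not tested.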

How the data were processed

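One-colour Agilent arrays of 93 rat calvarial defects were analysed, 14 groups of 3 to 12 arrays by day and defect size. The values deposited by the authors are linear ratios, of which 87.8% of probes have a median of 1 over the arrays, with no value under 0.01. Neither scanner settings nor background correction nor scaling between arrays is described in the labels used here, so the centring of each array is unknown. Log2 of the ratio was used as deposited. Of 41090 probes, 20932 carry 1 gene symbol in the platform annotation, 0 carry several and 20158 are unnamed here. Symbols were updated through RefSeq accessions for 17424, and for a gene with several probes the most variable by interquartile range was kept, which left 15975 genes.

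A linear model of 14 group means was fitted over all genes with limma 3.58.1 (R 4.3.3) and moderated with eBayes (prior df 1.9), and p-values were adjusted by Benjamini-Hochberg over all genes with a threshold of 0.05. Changes against day 1 used the mean over all arrays of a day. The fit was also run on simulated data, in which each gene's deviations from its group means were shuffled over all arrays. Such data keep neither the unequal spread of the groups nor the correlation between genes, so they do not test the fit under either. The 4 genes and all gene and marker lists were chosen with earlier results of these data known. Named genes are the 4 members, the 3 genes most like each over the 14 group means, and list genes that passed a size comparison or had the 3 largest passing changes against day 1 in their list. Dusp5, Map2k6, RT1-Da, Cd74, RT1-DMa, Gprin2, Gprin3 and Ciita were added after their values were seen. Size differences of the 4 genes at days 3, 5, 14 and 21 chose them and were not tested. Alternatives were each array centred on the median of the 12117 probes never at the floor, quantile normalization, array weights, the mean of all probes of a gene, values under 0.25 raised to 0.25, less variable genes left out, each day fitted alone, both sizes weighted equally, a replicate block and leaving out single arrays. Added after seeing the data were centring on all genes, array level as a covariate, and leaving out the 7 arrays of level below -0.7 or the 8 with a neuron marker score above 2. Promoter windows are from RefSeq on GRCr8.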

Additional observations from a re-analysis of the deposited data

Results flagged for a closer look

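In 8 mm defects at day 1, replicate 11 gave a Gprin1 log2 value of 0.64, while the next highest of the 5 arrays gave -0.36, a gap larger than Dixon's critical value allows for 5 samples. The level of this array was -1.50, among the 7 low arrays, and centring was not part of this check. It was the 1 such array found in 40 combinations of gene and group tested, a share no larger than the about 5% that chance gives. The groups 4 mm day 1 (3 arrays), 8 mm day 3 (11) and both of day 5 (11 and 12) were not checked. Replicate 18 of 8 mm day 3, with a level of -2.69 and the lowest value of its group for all 4 genes, was thus outside the check. Without replicate 11 of 8 mm day 1 the Gprin1 difference between sizes at day 1 was -0.08 and its change from day 1 to day 5 was 0.01. The part of the array level in this value was not tested.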

How the results depend on the processing

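Values are given as log2 differences or counts of genes with an adjusted p under 0.05 from limma. Between sizes at day 1 Gprin1 turned from 0.15 to -0.092 with quantile normalization, -0.18 with array weights and -0.41 without low-level arrays, and ranged from -0.18 to 0.37 when single arrays were left out. Dusp8 at day 1 ranged from -0.57 to 0.39 and Zxdc from -0.98 to 0.47 in the same way. At day 3 Grin2d turned to 0.13 when centred, 0.092 with quantile normalization, 0.13 with array weights and 0.19 without low-level arrays. At day 10 Zxdc turned to 0.070 centred, 0.041 centred on all genes and 0.053 with level as a covariate (-0.57 to 0.26 without single arrays). At day 10 Grin2d was -0.026 without low-level arrays and -0.013 to 0.44 without single arrays, and Dusp8 -0.047 to 0.54. Gprin1 from day 1 to day 7 turned to -0.47 centred, -0.16 centred on all genes, -0.15 with quantile normalization and -0.023 with array weights (-0.049 to 0.40 without single arrays), to day 14 to -0.063 centred, and to day 5 it ranged from -0.24 to 0.011. The cause of these turns was not tested.

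Genes passing between sizes at day 1 (0) became 2 centred, 2 with quantile normalization, 37 with array weights, 21 with the day fitted alone, 4 without low-level arrays and 2 with the covariate. At day 7 (59) they became 160 centred, 1 with less variable genes left out, 2 with values raised, 2106 with array weights, 6 with the day alone, 1202 without low-level arrays, 371 without high neuron scores and 28 with the covariate. At day 10 (42) they became 93 centred, 66 centred on all genes, 12 with quantile normalization, 3 with less variable genes left out, 24 with the replicate block, 21 with array weights, 8 with the day alone and 104 with the covariate. Leaving out less variable genes, so that fewer were tested, gave 156, 418, 907, 1000, 1347 and 1726 against day 1 at the 6 later days and 3380 in the F test, in place of 1046, 3136, 3502, 2898, 3483, 4350 and 9330, and array weights gave 2430 at day 3. Leaving out single arrays gave 0 to 3 between sizes at day 1, 2 (without replicate 13 of 8 mm day 7) to 158 (without replicate 12) at day 7 and 42 to 72 at day 10. Against day 1 it gave 724 to 1309, 2205 to 3658, 2809 to 3804, 2422 to 3269, 2942 to 3615 and 3823 to 4479 at the 6 later days, and 9066 to 9542 in the F test.

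Of the 4 genes, 0 passed between sizes at day 7, and 1 did when centred either way, with quantile normalization, with array weights and without low-level or high neuron arrays (0 to 1 without single arrays). At days 5 and 7 against day 1, 3 passed, and 1 did when centred either way, with the replicate block and with the covariate (1 to 3 at day 5 without single arrays). At day 14, 0 became 3 with quantile normalization and 2 with values raised (0 to 1 without single arrays), and at day 21, 3 became 1 with the replicate block (2 to 3 without single arrays). After the group mean was taken off, samples of the same rat number in the 2 sizes of a day correlated above 0.1 in 3 of 34 pairs. The highest was 0.33, for rat number 16 at day 5. Whether a rat gave more than 1 sample is not stated in the labels, and these correlations cannot settle it. The main fit takes the samples as unpaired, and the replicate block is given beside it. With less variable genes left out Gprin1 and Grin2d were not tested, so no count of the 4 was made, and Dusp8 lost its calls at days 5, 7 and 21 and Zxdc at day 7. With both sizes weighted equally Grin2d lost its call at day 5 and Dusp8 at day 21. The number of arrays, unknown array scaling, 1 probe per gene and the floor limit these values.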
